A study of Homo sapiens with 39 samples.

Results

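The core histone genes encode the proteins around which DNA is wound into nucleosomes (H2A, H2B, H3 and H4) and the linker histones that bind between them (H1). They were followed in 2 human lung cancer lines, NCI-H838 (H838, a lung adenocarcinoma line) and NCI-H209 (H209, a small cell lung carcinoma line of neuroendocrine type). Members were all genes whose probes carried the current name H1-1 to H1-5, or H2AC, H2BC, H3C or H4C with a number; older names beginning HIST1H to HIST4H were searched too, but the probe annotation used current names throughout. This rule gave 68 genes, of which 61 passed the filter on dim probes and stood among the 18555 genes tested. Treated cells were given DKFZ-608 at 100 nM, a compound that the labels call a non-covalent TRXR1 inhibitor (TRXR1 being thioredoxin reductase, an enzyme of redox defence). Cyclodextrin at 6.9 µM carried the compound, and by itself served as the vehicle. RNA was taken after 4, 8 and 24 h of either, and from vehicle cells at 0 h. Each of the 14 groups had 3 arrays, except H209 with DKFZ-608 at 8 h, H838 with DKFZ-608 at 24 h and H209 with vehicle at 8 h, which had 2 each. In all there were 39 Illumina bead arrays, 20 of H838 and 19 of H209. The labels do not say whether replicates were grown separately, so the spread behind the p-values is that between arrays and may be technical. Each tumour type was represented by 1 line.

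Most core histone genes are replication-dependent. They lie in clusters, have no introns, and are transcribed as cells copy their DNA in S phase, under the coactivator NPAT. Their mRNAs end in a stem-loop bound by SLBP in place of a poly(A) tail, although some of the genes can also yield polyadenylated transcripts. Replacement histones such as H3-3A, H2AZ1 and H1-10 are made outside S phase from ordinary polyadenylated mRNAs. The labels record amplification with the Illumina TotalPrep kit, which primes with oligo(dT), so that tailless transcripts are poorly captured. How much this set the values below was not tested.

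The 61 tested genes comprised 5 of 5 annotated H1 genes, 15 of 17 H2A genes, 16 of 18 H2B genes, 12 of 13 H3 genes and 13 of 15 H4 genes. By position, 48 lay in the HIST1 cluster of chromosome 6, 11 in the HIST2 cluster and 1 in the HIST3 cluster of chromosome 1, and 1 in the HIST4 locus of chromosome 12. The genes that did not pass the filter were H2AC1, H2AC14, H2BC10, H2BC26, H3C3, H4C6 and H4C7, whose log2 intensity ran from 6.24 to 6.63 over all arrays. The table's median was 6.55 on that scale, and 42 of the 61 tested genes were above its 75th percentile (7.05) in fewer than 2 arrays. The 19 brighter ones were 1 H1 gene, 7 H2A genes, 5 H2B genes, 1 H3 gene and 5 H4 genes. At the dim end the array background compresses differences, so that folds are understated.

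The promoters of the members that differed most are shown first, since most of the results below concern them. RefSeq promoter windows (build GRCh38.p14) were found for 63 of the 68 members, and H4C3 had no entry. The 250 bases before the annotated start are printed 5′ to 3′ on the gene's own strand in lower case. Capitals mark exact matches, on either strand, to the octamer ATTTGCAT, the CCAAT box CCAAT and the TATA box TATAAA. These are textbook elements of histone promoters, and overlapping matches are merged. The windows are chr6:26056471-26056720 (minus strand) for the linker histone gene H1-2, chr1:149842751-149843000 (minus strand) for H2AC18, chr1:149886668-149886917 (plus strand) for H2AC20, chr6:27146859-27147108 (minus strand) for H2BC12 and chr6:26285535-26285784 (minus strand) for H4C8.
H1-2: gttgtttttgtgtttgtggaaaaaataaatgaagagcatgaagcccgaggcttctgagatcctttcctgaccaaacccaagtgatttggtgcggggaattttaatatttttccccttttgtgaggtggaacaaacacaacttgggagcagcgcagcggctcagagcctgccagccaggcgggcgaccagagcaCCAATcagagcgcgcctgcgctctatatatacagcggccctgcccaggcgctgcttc
H2AC18: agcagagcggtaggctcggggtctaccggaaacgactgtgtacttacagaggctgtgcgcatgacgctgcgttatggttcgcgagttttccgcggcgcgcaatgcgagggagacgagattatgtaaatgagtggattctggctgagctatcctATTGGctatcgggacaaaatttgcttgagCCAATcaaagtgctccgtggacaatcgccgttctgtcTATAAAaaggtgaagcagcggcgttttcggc
H2AC20: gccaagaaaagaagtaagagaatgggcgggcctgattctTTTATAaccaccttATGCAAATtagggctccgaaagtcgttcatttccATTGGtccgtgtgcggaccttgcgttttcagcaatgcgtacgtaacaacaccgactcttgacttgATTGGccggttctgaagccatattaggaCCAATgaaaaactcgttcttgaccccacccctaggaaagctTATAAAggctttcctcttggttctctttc
H2BC12: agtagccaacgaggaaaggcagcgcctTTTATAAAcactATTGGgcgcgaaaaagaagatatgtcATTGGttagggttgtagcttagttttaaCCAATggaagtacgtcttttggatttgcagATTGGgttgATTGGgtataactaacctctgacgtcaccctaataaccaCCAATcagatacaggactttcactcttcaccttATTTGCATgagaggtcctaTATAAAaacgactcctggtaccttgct
H4C8: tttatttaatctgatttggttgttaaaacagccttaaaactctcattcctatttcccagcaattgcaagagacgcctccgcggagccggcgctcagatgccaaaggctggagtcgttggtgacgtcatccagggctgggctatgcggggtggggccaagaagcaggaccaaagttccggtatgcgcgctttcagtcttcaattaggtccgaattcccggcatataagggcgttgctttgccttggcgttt

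The window of H2AC19 matched that of H2AC18 at 249 of 249 bases once shifted by 1 base. The same held for the neighbouring copies H3C14 and H3C15 (246 of 246 bases) and for H4C14 and H4C15 (250 of 250 bases). Their transcripts may share probes, so that values of such copies are uncertain as to gene, and 1 further probe was annotated to both H3C11 and H3C6 and left out. The RefSeq gene table lists for H2BC5 also the older names of H2BC4, H2BC6, H2BC7, H2BC8 and H2BC10, so values of H2BC5 are likewise uncertain as to gene. The octamer stood in 68.8% of 16 H2A windows and 77.8% of 18 H2B windows, against 1.63% of all 35116 RefSeq promoters. Matches on either strand were counted. The windows of 10 H2A and H2B pairs overlap, so that 1 octamer can count for both genes of a pair. It stood in 0 of 5 H1 windows, 9.09% of 11 H3 windows and 0 of 13 H4 windows. A CCAAT box was present in 84.1% of the 63 histone windows and in 32% of all promoters, and a TATA box in 66.7% and 10.7%. The H4 genes had a CCAAT box in 23.1% of 13 windows, and H4C8 had none of the 3 motifs in the letters printed. H1-2 had a CCAAT box, H2AC20 and H2BC12 had all 3 motifs, and H2AC18 had CCAAT and TATA boxes. The octamer of H2AC20 lay on the other strand, 197 bases before the start, in the stretch its window shares with that of H2BC21. These matches describe letters and not binding.

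Some H209 arrays went against their labels. The arrays named 8 h replicate 2 and 24 h replicate 3, in both treatments, carried the opposite group's level of MT1M (a metallothionein) and HMOX1 (heme oxygenase 1). MT1M read 6.56 and 6.33 in these libraries labelled DKFZ-608, and 12.17 and 10.65 in those labelled vehicle. The other 6 H209 arrays with DKFZ-608 read from 9.79 to 12.10 for MT1M. HMOX1 read 8.09 and 7.47 in the same libraries labelled DKFZ-608, and 12.47 and 11.01 in those labelled vehicle. H209 results with DKFZ-608 are therefore given with all arrays and without these 4. Array medians lay between 92.6 and 94.2 intensity units, quartiles differed by at most 0.0719 log2, and arrays of a group correlated at 0.985 or higher. In vehicle arrays at 0 h, all 7 neuroendocrine markers tested were lower in H838 than in H209; INSM1, a neuroendocrine transcription factor, had a difference of -5.27. Of 9 epithelial markers, CAV1, S100A6 and MUC1 were higher in H838 and EPCAM, KRT19, KRT8 and KRT18 lower. Of 10 markers of fibroblasts, blood, vessel and liver cells tested, CD14 and LUM were higher in H838 and VWF and ALB lower.

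How the lines differ before treatment was read from the vehicle arrays at 0 h, H838 minus H209. H838 had the higher level of 22 core histone genes and the lower level of 4, by limma at an adjusted p below 0.05 (Benjamini-Hochberg over 18555 genes). Over all genes 45.8% passed, 21.3% higher and 24.5% lower in H838. The members' median difference was 0.11 log2, beside 0.01 for all genes. A gene could pass the filter on dim probes through 1 line alone, so these counts and medians depend in part on the filter. The large differences sat in a few genes of the H1, H2A, H2B and H4 families, while the H3 genes stayed between -0.12 and 0.19. Only 1 of the 12 H3 genes tested was among the brighter ones, and for dim genes a line difference may not show.

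H1-2, a linker histone that compacts chromatin, had the widest gap. Its log2 intensity was 10.89, 10.87 and 10.66 in H838, against 7.96, 8.42 and 8.28 in H209. The difference of 2.59 ± 0.17 (SE) corresponded to 6.03-fold, with an adjusted p of 1.12e-14. All 20 H838 arrays lay between 9.94 and 11.20 over every time and treatment, and all 19 H209 arrays between 7.69 and 8.42. The other linker histone genes H1-1, H1-3, H1-4 and H1-5 differed by -0.11 to 0.14 and did not pass. They were above the table's 75th percentile in no array, so that a line difference may not show.

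H2A genes of the HIST2 cluster followed. H2AC18 read 10.24, 10.01 and 9.69 in H838, against 7.73, 8.15 and 7.87 in H209. Its near-identical copy H2AC19 read 9.85, 9.95 and 9.59 in H838, against 7.47, 7.87 and 8.01 in H209. H2AC20, a further H2A gene of that cluster, read 9.77, 9.67 and 9.74 in H838, against 7.41, 7.48 and 7.90 in H209. The lines did not overlap in any of them, and the differences were 2.07 ± 0.17, 2.01 ± 0.16 and 2.13 ± 0.16 (SE). A second H2AC18 probe gave 2.09. H2AC21, the remaining HIST2 gene of the family, had a difference of 0.58 ± 0.08.

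Among the H2B genes, H2BC12 read 13.02, 13.16 and 12.69 in H838, against 11.06, 11.09 and 11.09 in H209. This difference of 1.88 ± 0.14 (SE, 3.67-fold) was accompanied by 1.57 in a second H2BC12 probe. H2BC4 read 7.56, 7.67 and 7.47 in H838, against 6.44, 6.39 and 6.61 in H209. H2BC4 (1.09 ± 0.07) and H2BC6 (0.87 ± 0.07) were near the table median in H209, so their folds are understated. H4C8, one of the genes that encode histone H4, read 8.33, 8.21 and 7.96 in H838, against 6.75, 6.60 and 6.60 in H209. Its difference was 1.52 ± 0.11 (SE), with an adjusted p of 1.11e-13.

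The 4 genes lower in H838 were H2AC25, H4C3, H2BC11 and H2AC11. H4C3 read 12.98, 13.46 and 13.53 in H838, against 13.83, 13.85 and 13.83 in H209, a difference of -0.51 ± 0.10. The first H838 array was the lowest of all arrays for H4C3. H2AC25 of the HIST3 cluster read 6.77, 6.87 and 6.99 in H838, against 7.36, 7.60 and 7.29 in H209, a difference of -0.54 ± 0.10. H2BC11 (-0.46 ± 0.09) and H2AC11 (-0.16 ± 0.06) were both close to the table median in H838, and a second H2AC11 probe gave -0.03.

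The remaining genes higher in H838 had small differences. H4C14 (0.43), H2BC5 (0.34), H2BC21 (0.34), H2AC6 (0.31), H2BC13 (0.26), H4C1 (0.25), H2BC8 (0.23), H4C5 (0.23), H4C4 (0.22), H4C15 (0.22), H4C2 (0.20), H3C1 (0.19) and H3C15 (0.18) each passed. By cluster, 8 of 11 HIST2 genes and 14 of 48 HIST1 genes were higher in H838, beside 21.3% of all genes. The HIST2 count holds the copies H2AC18 and H2AC19, and H4C14 and H4C15, which may share probes.

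**Figure D1:**
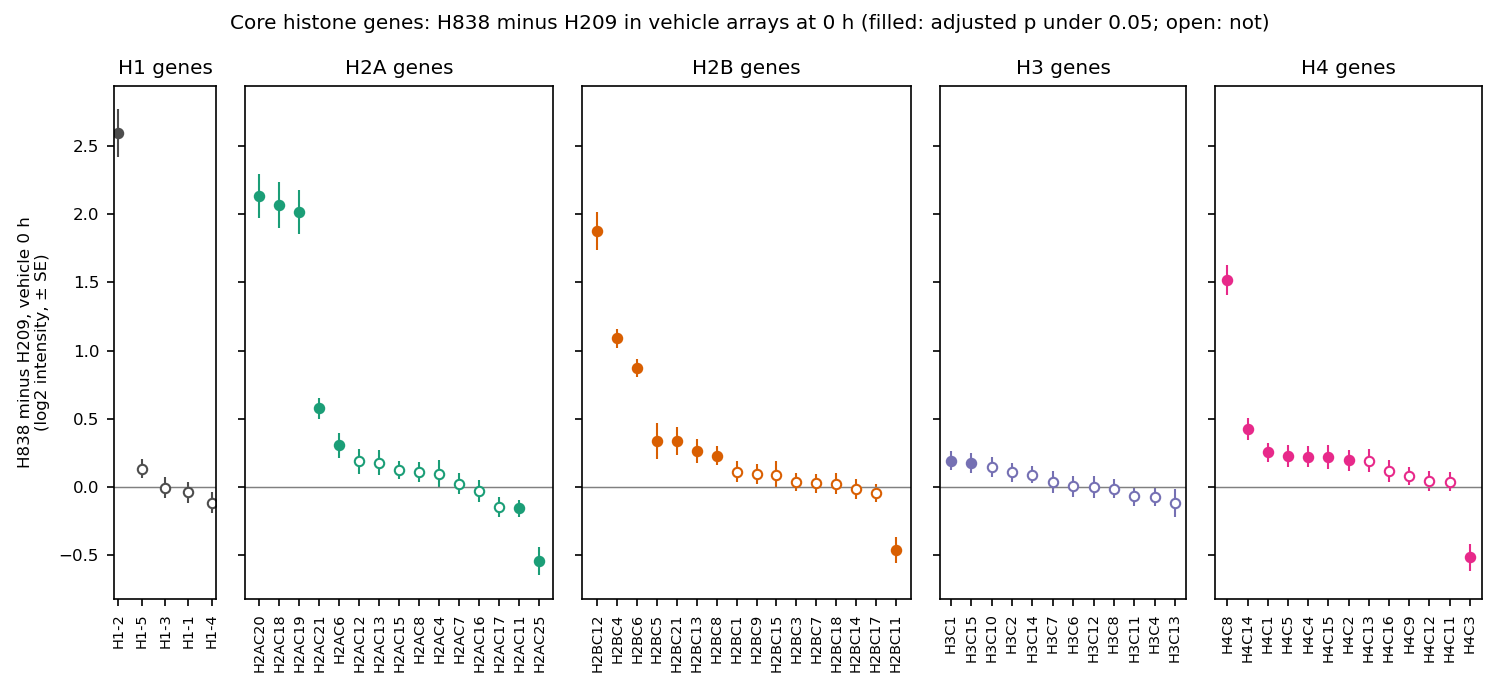
Difference in log2 intensity (y axis, H838 minus H209, ± SE) of the 61 tested core histone genes (x axis, by family) in vehicle arrays at 0 h, 3 arrays a line; filled points had an adjusted p below 0.05. H1-2 stands at 2.59, a group of 3 H2A genes at 2.01 to 2.13, H2BC12 at 1.88 and H4C8 at 1.52. The H3 genes, of which only 1 was among the brighter members, lie near 0.

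Over every time and treatment, 10 core histone genes had all H838 arrays above all H209 arrays: H1-2, H2AC18, H2AC19, H2AC20, H2AC21, H2BC4, H2BC6, H2BC12, H3C1 and H4C8. None had all H838 arrays below all H209 arrays. Of all genes, 13.7% were separated upward in this way and 15% downward. The 10 members with the widest span of the 14 group means were H1-2 (3.00), H2AC20 (2.46), H2AC19 (2.35), H2AC18 (2.19), H2BC12 (2.08), H4C8 (1.63), H2BC4 (1.09), H2BC6 (0.98), H2AC25 (0.78) and H2AC21 (0.71).

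Neighbouring H2A and H2B genes often lie head to head, with their start sites so close that their promoter windows overlap. There were 10 such H2A and H2B pairs among the members, and in 7 both genes were tested. In the pair H2BC21 and H2AC20, the line difference was 0.34 (95% interval 0.13 to 0.54) for H2BC21 and 2.13 (1.80 to 2.46) for H2AC20. In the pair H2BC4 and H2AC6, it was 1.09 (0.95 to 1.23) and 0.31 (0.12 to 0.49). H2BC11 and H2AC11, another such pair, were both lower in H838, by -0.46 and -0.16. The 7 pairs held genes with like and with unlike differences, and the difference within a pair was not tested.

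Replacement histones ran the other way. Of 10 tested, 8 were lower in H838 at 0 h and H2AJ alone was higher, by 1.48 ± 0.09 (SE). H1-10, a replication-independent linker histone, read 7.10, 7.35 and 7.49 in H838, against 9.52, 9.33 and 9.30 in H209, a difference of -2.07 ± 0.16. H3-3B (-1.68 ± 0.12) and H3-3A (-0.55 ± 0.07), which encode the replacement histone H3.3, were both lower in H838. So were MACROH2A2 (-1.24), CENPA (-1.16), the histone H3 of centromeres, MACROH2A1 (-0.93), H2AX (-0.46) and H2AZ2 (-0.39). H2AZ1 (0.06, adjusted p 0.63) did not pass. Of 22 histone chaperones, 13 were lower in H838, among them RBBP4 (-2.89) and ATRX (-2.46), and 2 were higher. Of 29 S phase genes 12 were higher and 8 lower, led by GINS3 (1.67) and GINS2 (-1.96). Of 25 genes of histone mRNA processing and transcription, 6 were higher and 10 lower. Beside these counts, 21.3% of all genes were higher and 24.5% lower in H838. Among all genes above the table's 75th percentile in at least 2 arrays, 34.7% were higher and 39.7% lower. SLBP (-0.20 ± 0.12) and NPAT (-0.16 ± 0.08) did not pass.

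Whether the levels held over the day in vehicle was read by setting 24 h against 0 h. In H838, 7 core histone genes passed as lower at 24 h and none as higher. Over all genes 1.89% passed, 1.06% higher and 0.83% lower at 24 h. Each of the 7 was among the 19 brighter members. The median difference was -0.23 over these 19 and 0.03 over the 42 dimmer members. By array order alone, 10 members had every 24 h array below every 0 h array, and 10 had every one above. Among all genes, 7.72% and 8.16% did so. In H209 none passed at 24 h, where 0.0162% of all genes did. There 1 member had an unadjusted p below 0.05, without a share over all genes at that threshold.

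H2AC18 read 8.98, 8.81 and 8.86 at 24 h in H838 vehicle, against 10.24, 10.01 and 9.69 at 0 h. It fell by 1.10 log2 (-1.10 ± 0.17, adjusted p 0.000258), to 0.468 of its 0 h level. Its second probe gave -1.16. The copy H2AC19 read 9.02, 9.01 and 8.92 at 24 h, against 9.85, 9.95 and 9.59 at 0 h, a difference of -0.82 ± 0.16 (adjusted p 0.00298). The 24 h arrays lay below every 0 h array for both genes. H2AC20 read 9.20, 9.46 and 9.38 at 24 h, against 9.77, 9.67 and 9.74 at 0 h; its arrays did not overlap either, but its difference of -0.38 ± 0.16 did not pass (adjusted p 0.339).

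H4C8 read 7.31, 7.19 and 7.28 at 24 h in H838 vehicle, against 8.33, 8.21 and 7.96 at 0 h. It fell by 0.91 log2 (-0.91 ± 0.11). At 8 h it had already reached 7.78, 7.48 and 7.52, below all 0 h arrays, a difference of -0.57 ± 0.11 from 0 h (adjusted p 0.00547). That call was lost without 0 h replicate 1 (adjusted p 0.113) and without 8 h replicate 2 (0.0797). At 4 h it read 8.22, 7.79 and 7.75 and overlapped the 0 h arrays. Its group means thus ran lower at each time, 8.17, 7.92, 7.60 and 7.26 at 0, 4, 8 and 24 h.

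H1-2 read 10.03, 10.06 and 9.94 at 24 h in H838 vehicle, against 10.89, 10.87 and 10.66 at 0 h, and fell by 0.80 log2 (-0.80 ± 0.17, adjusted p 0.00833). At 4 h (11.03, 10.92 and 10.69) and 8 h (10.91, 10.81 and 10.43) it overlapped the 0 h arrays. H2BC12 read 12.50, 12.53 and 12.25 at 24 h, against 13.02, 13.16 and 12.69 at 0 h, a difference of -0.53 ± 0.14 (adjusted p 0.0377), with -0.58 in its second probe. H2BC21 fell by 0.41 log2. The probe standing for H2BC5 fell by 0.50 log2, but its other probes gave 0.18 and -0.09, so that the direction of H2BC5 depends on the probe.

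The calls for H1-2, H2BC12, H2BC5 and H2BC21 rested on single arrays. Without vehicle 0 h replicate 1 or without 0 h replicate 2, 3 of the 7 passed in each case, and without 24 h replicate 2, 4 passed. H2AC18, H2AC19 and H4C8 passed whichever array was left out. H3C2 was higher at 8 h than at 0 h in H838 vehicle (6.91, 6.79 and 6.83 at 8 h, against 6.46, 6.52 and 6.61 at 0 h; 0.32 ± 0.07, adjusted p 0.0183), when 0.587% of all genes passed. This call also rested on single arrays: it was lost without 0 h replicate 1 or 2 (adjusted p 0.205 and 0.0896) and without 8 h replicate 1 or 3 (0.145 and 0.068). At 24 h H3C2 read 6.75, 6.60 and 6.52. None passed at 4 h in H838, where 0.00539% of all genes passed. There 6 members had an unadjusted p below 0.05, a looser threshold for which no share over all genes is given. In H209 none passed at 4 or 8 h, where 0% and 0.0108% of all genes passed. At an unadjusted p below 0.05 there were 0 and 1 members, again without a share over all genes. Without the 4 H209 arrays the H209 counts were also 0.

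**Figure D2:**
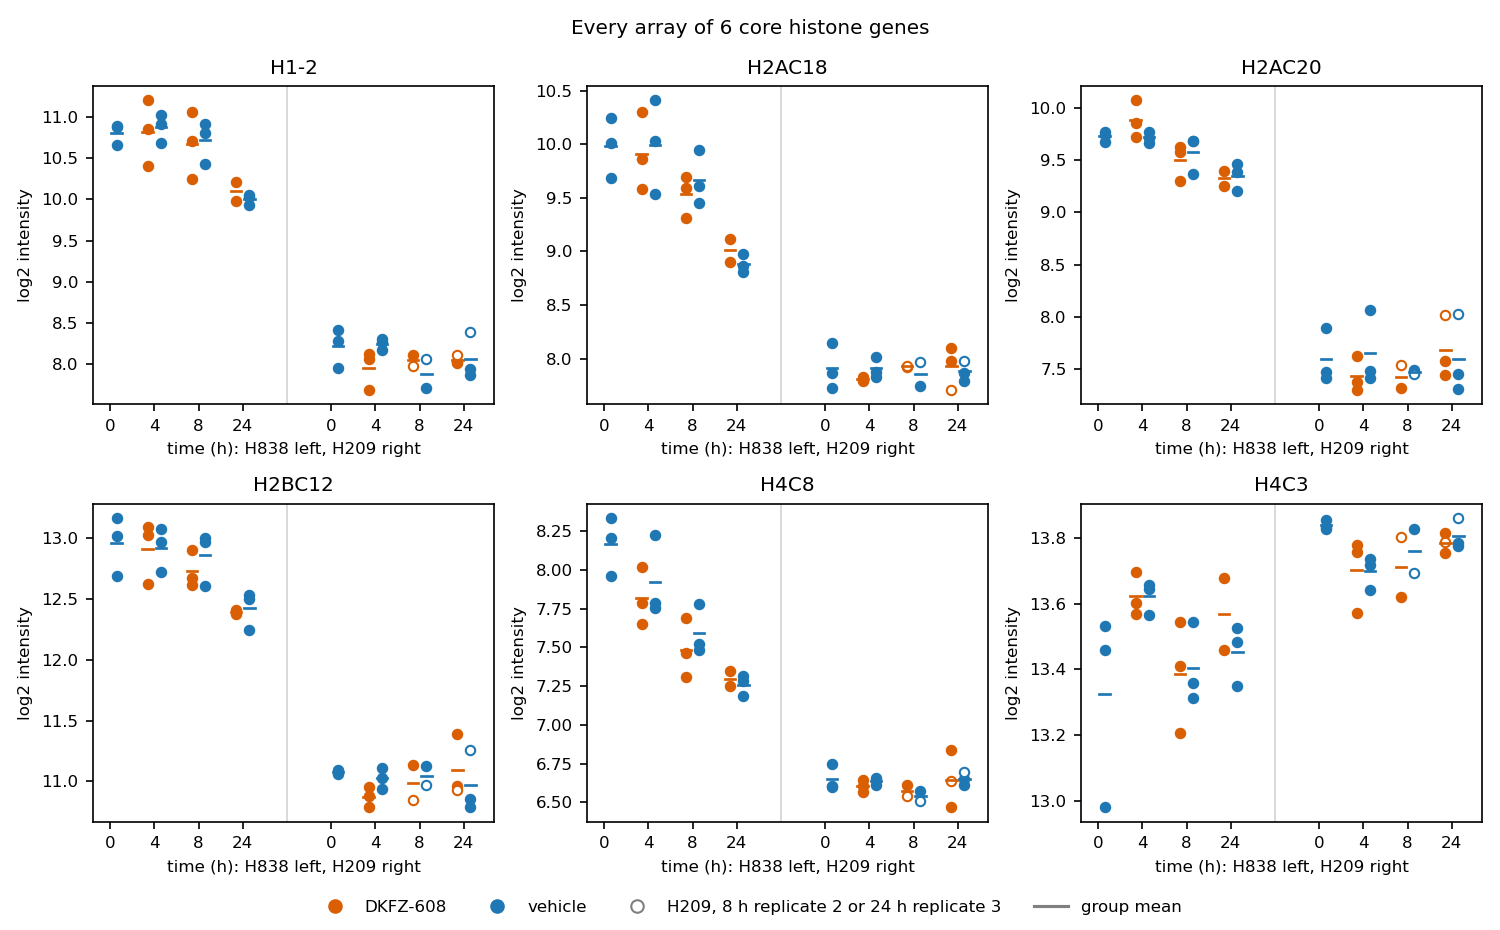
Log2 intensity (y axis) of 6 core histone genes in every array by time (x axis, h), H838 left and H209 right in each panel; orange points are DKFZ-608, blue points vehicle, open points the H209 arrays of 8 h replicate 2 and 24 h replicate 3, and lines the group means. H1-2, H2AC18, H2BC12 and H4C8 lie lower at 24 h than at 0 h in H838, with DKFZ-608 beside vehicle at each time, while H4C3 lies at about 13 to 14 in both lines.

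The change over 24 h was also set between the lines directly. For H4C8 the change in H838 minus that in H209 was -0.91 ± 0.16 (SE, adjusted p 0.00556), where 0.162% of all genes passed. In H209, H4C8 read 6.61, 6.65 and, in the doubtful replicate 3, 6.69 at 24 h, against 6.75, 6.60 and 6.60 at 0 h, close to the table median at both times. H2AC18 had a line difference in change of -1.06 ± 0.24 (adjusted p 0.053), H2AC19 of -0.68 ± 0.23 (0.289), H1-2 of -0.65 ± 0.25 (0.413) and H2BC12 of -0.42 ± 0.20 (0.6), none of which passed. H2AC18 in H209 read 7.87, 7.79 and, in the doubtful replicate 3, 7.98 at 24 h, against 7.73, 8.15 and 7.87 at 0 h. These groups overlap. Without the 4 doubtful arrays the line difference in change was -0.89 for H4C8 (adjusted p 0.0223), -1.01 for H2AC18 (0.0931), -0.49 for H1-2 (0.624), -0.48 for H2AC19 (0.546) and -0.27 for H2BC12 (0.774). The number of members that passed moved with the processing: 1 with the settings used throughout, 4 with the replicate number as a block, 2 after quantile normalization or with the stricter filter, and 0 after background subtraction or with times from the time field.

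Other genes of DNA replication were read in the same arrays. Of 29 S phase genes, 4 fell by 24 h in H838 vehicle, none rose and the rest did not pass, beside 0.83% of all genes that fell. The 4 were the replication licensing factor CDT1 (-0.75 ± 0.14), UHRF1 (-0.65 ± 0.18), which maintains DNA methylation at forks, GINS3 (-0.48 ± 0.10) and RFC4 (-0.38 ± 0.09). CDT1 read 8.75, 8.85 and 8.78 at 24 h, against 9.50, 9.55 and 9.59 at 0 h. Of 25 genes of histone mRNA processing and transcription, CCNE1 alone fell (-0.66 ± 0.14); it encodes the cyclin whose kinase phosphorylates NPAT. SLBP read 10.54, 10.49 and 10.41 at 24 h, against 10.84, 10.99 and 10.83 at 0 h, and its difference of -0.41 ± 0.12 did not pass (adjusted p 0.0915), nor did NPAT (-0.14 ± 0.08). Among 22 chaperones, CHAF1A (-0.47 ± 0.10) and CHAF1B (-0.34 ± 0.08), subunits of the complex that deposits new histones at forks, fell and RBBP7 (0.40 ± 0.09) rose. CENPA rose by 1.25 ± 0.22, reading 9.36, 9.45 and 9.27 at 24 h, against 7.68, 8.00 and 8.65 at 0 h. The replacement histones H2AX (0.12), H2AZ1 (0.23), H3-3A (0.02), H3-3B (0.05) and H1-10 (0.45) did not pass. In H209 none of these lists had a gene that passed. In bulk RNA, fewer cells in S phase and less RNA per cell cannot be told apart.

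**Figure D3:**
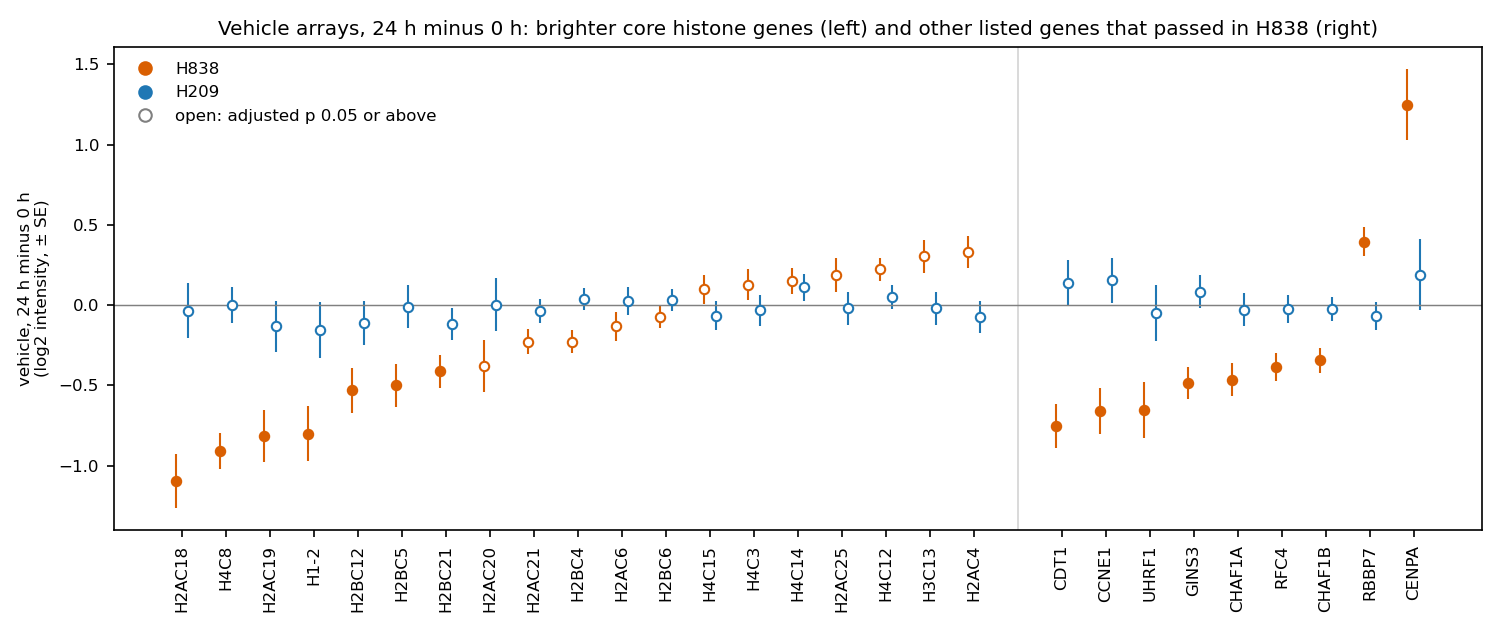
Difference in log2 intensity between 24 h and 0 h in vehicle arrays (y axis, ± SE) for the 19 brighter core histone genes and, right of the line, the other listed genes that passed in H838 (x axis); orange is H838, blue is H209, and open points had an adjusted p of 0.05 or above. In H838, 7 histone genes lie at -0.41 to -1.10, as filled points, and all H209 points are open.

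DKFZ-608 was then set against vehicle at the same time. None of the 61 core histone genes passed at any time, or over the mean of 4, 8 and 24 h, in either line with all arrays. The share of all genes that passed was 0.652% in H209 at 4 h (0.528% higher and 0.124% lower) and 0% in the other comparisons. The doubtful H209 arrays enter the spread shared by both lines. With the spread from H838 alone, 0.0162%, 0.0269% and 0.0108% of all genes passed in H838 at 4, 8 and 24 h. Over the mean of times it was 0.0216%. MT1M at 8 h in H838 read 9.26, 9.69 and 8.78 with DKFZ-608, against 7.27, 7.29 and 7.34 with vehicle. It did not pass with all arrays. With all arrays, 2, 3 and 1 members had an unadjusted p below 0.05 in H838 at 4, 8 and 24 h, and 2 did over the mean of times. In H209 the counts were 0, 1 and 3, and 0 over the mean. The shares of all genes given above are at the adjusted threshold and do not match these counts.

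In H838 the differences of the 61 genes over the mean of times ran from -0.11 (H4C14) to 0.07 (H3C6). The 95% intervals of the 19 brighter genes reached no further than -0.24 (H2AC18) and 0.22 (H2AC20). H1-2 at 24 h read 10.21 and 9.98 with DKFZ-608, against 10.03, 10.06 and 9.94 with vehicle. H2AC18 at 24 h read 9.12 and 8.90 with DKFZ-608, against 8.98, 8.81 and 8.86 with vehicle. H4C8 at 24 h read 7.35 and 7.25 with DKFZ-608, against 7.31, 7.19 and 7.28 with vehicle. Treated and vehicle arrays overlapped in all 3 genes, with 95% intervals of -0.31 to 0.49, -0.26 to 0.51 and -0.21 to 0.29. H3C7 at 4 h (-0.23, adjusted p 1) and H2BC9 at 24 h (-0.19) were the largest negative differences at those times.

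In H209 with all arrays, differences over the mean of times ran from -0.10 (H2BC5) to 0.10 (H4C14), and the intervals of the brighter genes from -0.27 to 0.28. At 4 h, the only time without a doubtful array, H1-2 read 7.69, 8.12 and 8.06 with DKFZ-608, against 8.17, 8.30 and 8.27 with vehicle. Its difference of -0.29 ± 0.17 was the largest negative one and did not pass, although the arrays did not overlap. H2BC5 (-0.22) and H2AC20 (-0.22) came next. In all, 4 members had every treated array below every vehicle array at 4 h and 0 had every one above, beside 7.65% and 6.56% of all genes.

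Without the 4 H209 arrays, more genes of the table passed in H209: 1.88% at 4 h, 1.42% at 8 h, 1.66% at 24 h and 4.87% over the mean of times. The core histones did so in 0, 0, 0 and 1 cases, with unadjusted p below 0.05 in 0, 4, 3 and 3. The 1 gene was H4C1, with a difference of 0.17 ± 0.05 over the mean of times (adjusted p 0.047), against 0.08 ± 0.04 with all arrays. H4C1 read 6.41, 6.56 and 6.44 with DKFZ-608 at 4 h, 6.67 at 8 h and 6.59 and 6.43 at 24 h, against 6.43, 6.28 and 6.51 with vehicle at 4 h, 6.36 at 8 h and 6.38 and 6.40 at 24 h. All these lie about the table median of 6.55, and the 4 h groups overlap. Only 1 array a group was then left at 8 h, so that its spread is assumed to be that of the other groups. At 8 h H2BC18 read 6.88 with DKFZ-608, against 6.45 with vehicle, a difference of 0.43 (adjusted p 0.0578). H2BC12 at 24 h had 0.35 ± 0.15 (adjusted p 0.428). The 95% intervals of the 19 brighter genes over the mean of times ran from -0.30 (H2AC20) to 0.41 (H2AC19).

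**Figure D4:**
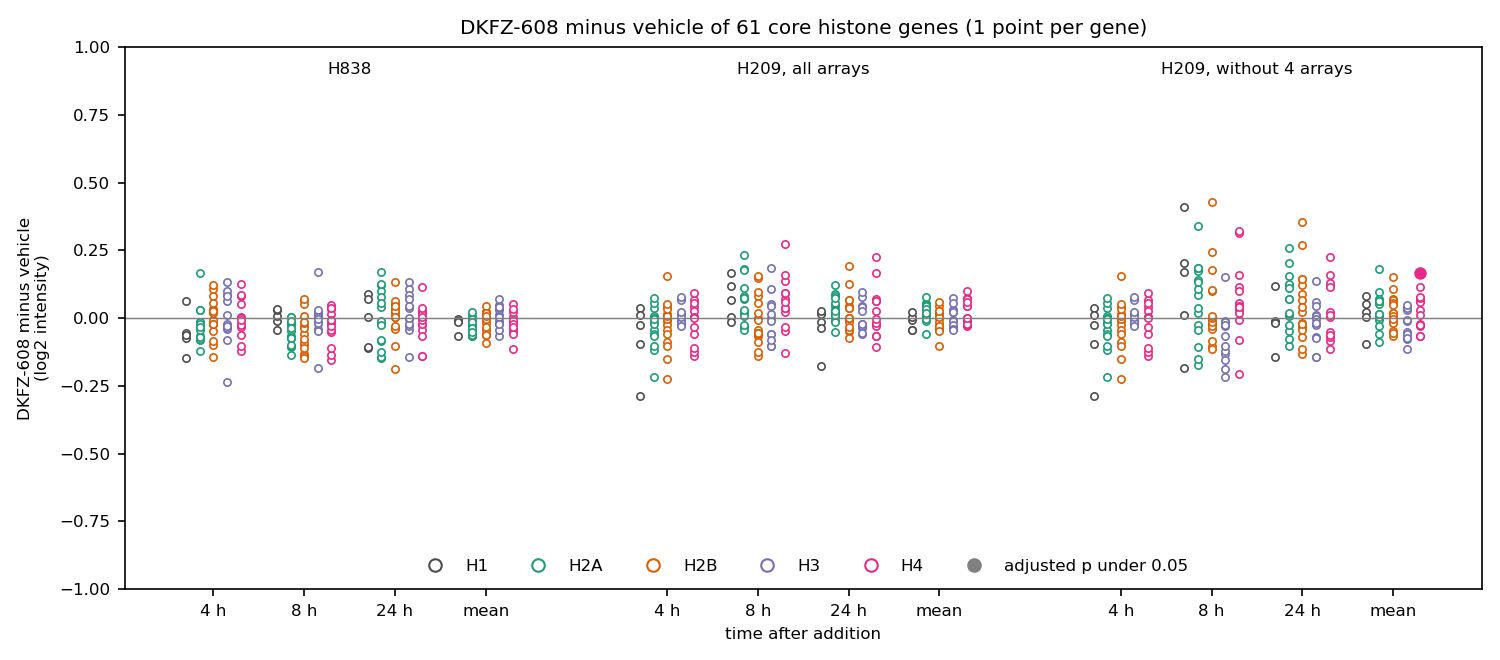
Difference in log2 intensity between DKFZ-608 and vehicle (y axis) of the 61 core histone genes by line and time (x axis), 1 point a gene, coloured by family; the right block leaves out the 4 H209 arrays. Points lie within about 0.4 of 0, and the only filled point, H4C1 at 0.17, is in the mean of times without those arrays.

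The effect of DKFZ-608 did not differ between the lines for any member by limma, H838 minus H209. At 4 h 0.0485% of all genes passed, and over the mean of times 0%. At an unadjusted p below 0.05 there were 2 and 1 members, without a share over all genes. The largest differences in effect were 0.38 (95% interval to 0.85) for H2AC20 at 4 h and -0.21 for H4C14 over the mean of times (unadjusted p 0.00602, adjusted p 1). Without the 4 H209 arrays, 0.717% and 2.51% of all genes passed and none of the members did. H4C14 then had -0.23 over the mean of times (adjusted p 0.162).

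Within groups, some members varied with the replicate number. H2AC18 and H4C8 were highest in replicate 1 in 7 of 7 H838 groups, and H1-2, H2AC19, H2BC21 and H4C5 in 6 of 7. In H209, replicate 3 was highest for H2AC20 and H2BC5 in 5 of the 5 groups that had one. H2AC20 read 7.90, 8.06 and 8.02 in replicate 3 of H209 vehicle at 0, 4 and 24 h (the last a doubtful array), against 7.31 to 7.49 in the other vehicle replicates. The labels do not say what the numbers stand for. The members named here were picked after their values were seen, and no such count over all genes is given.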

How the data were processed

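The deposited values were probe intensities on a linear scale (60.0 to 21062 units), processed by the authors before deposition; the software, normalization and genome build are not given in the sources used here. That the unit is intensity was read from the values, whose quartiles nearly coincide between arrays. Per the labels' protocols, total RNA was amplified to biotin-labelled cRNA.

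Of 48107 probes, 20 with empty cells were left out. Values under the table's percentile 1 (75.8) were raised to it and log2 was taken. Probes above the table median (log2 6.55) in at least 2 arrays were kept (42925). Genes were named from the platform annotation as it stands; 26943 kept probes had exactly 1 symbol and 15982 did not and were not tested. The kept probe with the highest mean stood for a gene, giving 18555 genes. H1-6 and H3-4 (formerly HIST1H1T and HIST3H3) lie outside the current names spelled out in the rule and were not counted as members.

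Each gene was fitted with limma 3.58.1 (R 4.3.3) as 14 group means over 39 arrays (25 residual and 6.79 prior degrees of freedom), with 18 contrasts and Benjamini-Hochberg adjustment over all genes of a contrast, threshold 0.05, two-sided. Intervals are 95% intervals of that fit, and SD and SE are on the log2 scale. Shares of all genes that passed use the adjusted p. Counts of members at an unadjusted p below 0.05 have no matching share beside them and are not read as results. The fit was also run on simulated data with independent noise between arrays. That run held neither doubtful arrays nor deviations shared by replicate number, so it cannot show how the fit handles them. No 2 arrays were identical. The number of arrays limits the precision, and detection calls were not used here.

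The members and the other gene lists were chosen with earlier results of these data known. Named genes were, for each contrast, members past the test (at most 10 in each direction), the 3 largest differences in each direction, the 10 members with the widest span of group means, up to 4 genes past the test of each other list with fixed histone genes, and MT1M and HMOX1; the text gives a subset, and values of further members as a group. Genes singled out beside these, such as S phase or marker genes, were taken from the lists after their values were seen.

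Time was taken from the titles, since the time field differed for 1 H209 vehicle array (replicate 3, titled 24 h, field 8 h) and was empty for another (replicate 2, 24 h). Replicate numbers are shared between groups without a stated meaning. Deviations of same-numbered treated and vehicle arrays correlated at -0.59 to 0.55 over 16 pairs (8 over 0.1), and those of vehicle arrays at different times at 0.03 to 0.56 over 17 pairs (14 over 0.1). The value of -0.59 belonged to both H209 pairs at 8 h, which repeat one another because each group had 2 arrays. Doubtful arrays enter those groups and the H209 groups at 24 h (-0.04, -0.18 and -0.24), so these values say little about pairing. All 3 pairs exceeded 0.1 in 3 comparisons: H209 DKFZ-608 against vehicle at 4 h, H209 vehicle at 4 h against 0 h, and H838 vehicle at 8 h against 0 h. The alternatives comprised the 4 doubtful H209 arrays left out, spread from 1 line, a replicate block, quantile normalization, other filters, no floor, background subtraction, the mean over probes, the time field, other variance priors, and each array left out in turn.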

Additional observations from a re-analysis of the deposited data

Results flagged for a closer look

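A single histone gene had a change over time that differed between the lines by a test of the difference itself. For H4C8 in vehicle, the change from 0 h to 24 h in H838 minus that in H209 was -0.91 log2 (-0.908532 before rounding; limma, adjusted p 0.00556). It fell by 0.91 log2 in H838 and differed by 0.00 in H209, where it lay near the table median at both times, so that a lower level in H209 was not detectable. After background subtraction the difference was -1.29 (adjusted p 0.0918), and with times from the time field -0.87 (adjusted p 0.113).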

How the results depend on the processing

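Only members that had passed were followed through the alternatives one by one, and none of these named differences changed direction. Some that had not passed did, such as H3C12 in the line difference of the change over 24 h (0.02 without the 4 H209 arrays, -0.03 with all). Among their values, 235 kept their side of the threshold and 11 lost it under alternatives other than leaving out an array; with 1 array left out, 124 kept it and 26 lost it. For H838 minus H209 at 0 h, 26 members passed, 16 with the stricter filter (which left 19 members), and 20 to 26 with 1 array left out. H2AC11 lost its call under the replicate block (-0.14, adjusted p 0.151) and as the mean over probes (-0.10, adjusted p 0.107). For H838 vehicle at 24 h against 0 h, 7 passed and 3 to 8 with 1 array left out: 3 without 0 h replicate 1, 3 without 0 h replicate 2 and 4 without 24 h replicate 2. H2BC12 lost its call after background subtraction (adjusted p 0.106) and as the mean over probes (0.106), and H2BC5 under both (0.0897 and 0.511) and with the time field (0.0549). For H838 vehicle at 8 h against 0 h, 2 passed, 1 with the spread from 1 line alone, 1 with the stricter filter, 1 after background subtraction plus 16, and 0 to 2 with 1 array left out. It was 0 without 0 h replicate 1, and 1 without 0 h replicate 2 or without 8 h replicate 1, 2 or 3. For the line difference in the change over 24 h, 1 passed, 2 after quantile normalization, 2 with the stricter filter, 0 after background subtraction plus 16, 0 with the time field, and 1 to 2 with 1 array left out (2 without H209 0 h replicate 2 or H838 0 h replicate 3). With the replicate block it was 4, and the block moved no other count of members by over 1.5 times; whether the numbers pair these arrays is not known. The DKFZ-608 contrasts gave 0 under all alternatives and with any array left out (0 to 0), except 1 in H209 over the mean of times without the 4 H209 arrays. Where an alternative did not itself drop genes or arrays, the cause was not tested. Most members are dim, and with 2 or 3 arrays a group small changes of such genes were not detectable.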
